A study of Mus musculus with 6 samples.

Results

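The genes described here encode 3 families of splicing factors and their kinases: 11 SR proteins, 19 heterogeneous nuclear ribonucleoproteins (hnRNPs) and the 4 CDC-like kinases (CLKs). They were taken by symbol, as the protein-coding genes named Srsf followed by a number, Hnrnp, or Clk1 to Clk4, each with a measurement of its own. That gave 34 genes among 51482 measurements. The cells were mouse embryonic fibroblasts of wild-type genotype, immortalised with SV40, whose large T antigen disables p53 and the retinoblastoma protein and so limits the cells as a model of normal fibroblasts. There were 3 samples kept for 16 h at 21% oxygen (normoxia) and 3 at 0.5% oxygen (hypoxia), described in the series as biological replicates. The study asks how low oxygen rewires mitochondria through mTORC1 and the protease YME1L, and the comparison of hypoxia with normoxia gives the transcript side of that response. The authors combined the 3 replicates of each condition into 1 FPKM per gene (fragments scaled to transcript length and library size), so values carry no SD and the depth of the libraries is unknown.

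SR proteins bind exons through RNA recognition motifs and, through a tail rich in arginine and serine, recruit the spliceosome to nearby splice sites. hnRNPs coat nascent transcripts and often act against SR proteins at the same exons. CLKs are nuclear kinases that phosphorylate the SR tail, which releases SR proteins from nuclear speckles, while kinases of the SRPK family do so in the cytoplasm. Many SR and hnRNP genes restrain their own expression through exons whose inclusion sends the transcript to nonsense-mediated decay, and CLK transcripts are often held in the nucleus with introns still in place.

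Below, rose and fell are used only of genes that the authors' Cuffdiff test called, at q below 0.05 in the authors' deposited table. That table calls 57.9% of all tested measurements, 28.9% as higher and 29% as lower in hypoxia. At q below 0.01 the shares are 24.5% higher and 24.2% lower, and with a change of at least 2-fold required 9.03% and 9.87%. The smallest q it holds is 0.000139, shared by 5148 measurements and by 17 of the 34 genes here, so q does not rank these. The summed FPKM was 1.17 times higher in hypoxia. Over measurements averaging at least 1 FPKM, the median log2 fold change was 0.0027. All 8 genes listed as a check of the response to low oxygen rose, from 2.72-fold for the prolyl hydroxylase gene Egln3 to 12.8-fold for Ndrg1. The list was chosen with earlier results of these data known. Of 10 fibroblast markers 9 had a row and were tested, and calls were 2 higher and 5 lower (median log2 fold change -0.25). The intermediate filament gene Vim rose from 883 to 2249 FPKM and Col3a1 fell from 328 to 182 FPKM. The summed level of the markers went from 2312 to 3663 FPKM, but from 1429 to 1414 FPKM over the 8 without Vim. The sums for other cell types went from 27.8 to 19.8 FPKM for epithelium, from 0.220 to 0.160 FPKM for endothelium and from 1.36 to 2.35 FPKM for blood cells. All 6 endothelial markers were below 1 FPKM in both conditions. The blood cell markers Adgre1, Itgam and Tyrobp were listed at 0, while Cd68, the only blood cell marker tested, rose from 1.32 to 2.27 FPKM. The highest epithelial marker was Krt14 at 15.9 and 10.8 FPKM. Their part in the results was not tested. In bulk RNA, fewer cells of a type and less RNA per cell cannot be told apart.

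Hypoxia went with higher transcripts of every CLK kinase, lower transcripts of most SR proteins, and changes in both directions among the hnRNPs. All 4 CLK genes rose, by 1.61-fold to 3.18-fold. Of 10 tested SR genes 6 fell, 2 rose and 2 were not called. Of 19 hnRNP genes 7 fell, 6 rose and 6 were not called. Together 25 of the 33 tested genes were called (75.8%), against the 57.9% of all tested measurements and 64.3% of those averaging at least 20 FPKM (38% higher, 26.3% lower), a level most of these abundant genes exceed. The lower calls among SR genes (60.0% of tested) stand beside 29% of all measurements, and the 36.8% lower and 31.6% higher among hnRNP genes lie nearer to the background. Median log2 fold changes of FPKM + 1, over genes with a mean of at least 1 FPKM, were 1.11 for the CLKs, -0.76 for the SR proteins and -0.18 for the hnRNPs. Differences between the families were not tested, since genes are not replicates.

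**Figure D1:**
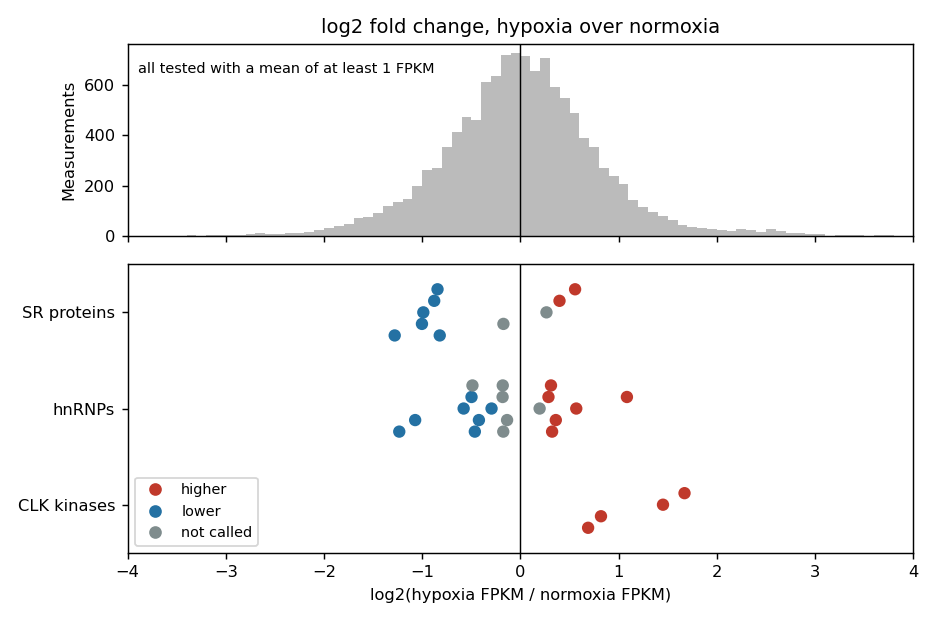
Log2 fold change of hypoxia over normoxia for all tested measurements averaging at least 1 FPKM (histogram, 42 beyond the axis limits of -4 and 4) and for the tested genes of the 3 families (points, coloured by the authors' calls, spread vertically only to keep them apart). The 4 CLK points lie between 0.69 and 1.67, while 6 SR points lie at or below -0.82.

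The CLKs are dual-specificity kinases that share a signature known as the LAMMER motif. Clk3 rose most, from 30.2 to 96.3 FPKM (3.18-fold; GRCm38 chromosome 9, 57750624 to 57765860). Clk4 rose from 21.6 to 59.0 FPKM (2.73-fold, chromosome 11, 51261730 to 51281766). Both at least doubled, which 9.03% of all tested measurements did with a call. Clk1, the best studied member and the one with the highest level in normoxia, rose from 45.1 to 79.5 FPKM (1.77-fold, chromosome 1, 58410189 to 58424066). Clk2 rose from 23.5 to 37.9 FPKM (1.61-fold, chromosome 3, 89164795 to 89176921) and was the lowest of the 4 in hypoxia. The order of levels thus changed, with Clk1 above Clk3 in normoxia and Clk3 above Clk1 in hypoxia. Clk3 and Clk4 together made up 43.0% of the summed CLK level in normoxia and 56.9% in hypoxia. The sum over the 4 kinases went from 120 to 273 FPKM (2.27-fold), and all 4 had the smallest q in the authors' deposited table. Clk3 overlaps Edc3, an mRNA decapping gene on the opposite strand that rose from 9.36 to 14.0 FPKM. The libraries were stranded, but the sources used here do not say whether the counting used strand.

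Because the CLK genes moved together, sequence before the RefSeq start of Clk2 and Clk4 is shown, beside that of Srsf6, Hnrnpab and Srsf9, which fell. The genes that fell are shown as examples and need not represent the others that fell. The window of Clk3 is not printed, since all 250 bases before its RefSeq start lie in annotated exons. The windows are RefSeq sequences on GRCm38.p6, read 5′ to 3′ on the strand of the gene. They hold the 250 bases before the RefSeq start, except that of Clk4. For Clk4 that start lies 1384 bases inside the gene as GENCODE annotates it, and 140 of the 250 bases before it lie in annotated exons. Only 30 of these 250 bases are shown, beginning 250 before the RefSeq start and holding 2 matches. All 30 lie in annotated exons and overlap an exon of BC049762 on the other strand. Capitals mark the core letters of the hypoxia response element, ACGTG or GCGTG, on either strand (CACGT and CACGC on the opposite strand, and CACGTG where ACGTG is read on both).
Clk2, chr3:89164545-89164794, plus strand: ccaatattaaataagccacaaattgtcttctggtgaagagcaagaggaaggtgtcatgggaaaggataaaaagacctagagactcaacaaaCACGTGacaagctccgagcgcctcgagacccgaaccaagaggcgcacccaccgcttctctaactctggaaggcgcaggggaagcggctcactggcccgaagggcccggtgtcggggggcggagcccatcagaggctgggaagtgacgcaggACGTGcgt
Clk4, chr11:51262864-51262893, plus strand: tacccaGCGTGgcCACGCccagcaaaactc
Srsf6, chr2:162931258-162931507, plus strand: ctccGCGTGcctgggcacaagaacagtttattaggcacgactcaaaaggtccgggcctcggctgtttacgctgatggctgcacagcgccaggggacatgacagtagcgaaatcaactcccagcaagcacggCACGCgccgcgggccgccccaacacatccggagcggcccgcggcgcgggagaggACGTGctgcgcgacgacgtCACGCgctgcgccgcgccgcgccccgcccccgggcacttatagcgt
Hnrnpab, chr11:51606882-51607131, minus strand: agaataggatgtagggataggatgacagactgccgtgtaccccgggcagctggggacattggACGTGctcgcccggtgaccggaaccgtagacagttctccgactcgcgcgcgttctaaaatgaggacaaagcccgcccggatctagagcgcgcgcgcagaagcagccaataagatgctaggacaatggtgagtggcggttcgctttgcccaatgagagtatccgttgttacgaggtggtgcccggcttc
Srsf9, chr5:115326927-115327176, plus strand: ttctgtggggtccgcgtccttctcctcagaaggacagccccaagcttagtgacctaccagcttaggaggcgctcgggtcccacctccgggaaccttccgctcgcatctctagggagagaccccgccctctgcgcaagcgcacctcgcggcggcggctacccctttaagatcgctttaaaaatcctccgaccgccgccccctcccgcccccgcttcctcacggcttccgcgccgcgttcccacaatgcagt

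Clk2, which rose, has 2 marked stretches, one of them the palindrome. The 30 bases of Clk4, all in annotated exons, have 2. The 2 matches of Clk4 describe only the bases shown, and a count over so few bases cannot be set beside a count over 250. Srsf6, which fell, has 4, and Hnrnpab, with the largest fall among the hnRNPs, has 1. Srsf9 has none in this window. RefSeq promoter windows of 300 bases, which also hold the first 50 transcribed bases, were matched for 31 of the 34 genes. Clk1, Hnrnpll and Hnrnpul2 had no entry. At least 1 window held ACGTG or GCGTG in 22 of the 31 genes (71.0%), against 46.7% of the 27025 genes in the table. A gene with more windows has more room for a match. Counted by window, 65.1% of the 43 windows of these genes held a match, against 43.8% of all 32851. Neither background was limited to expressed genes, and the difference was not tested. The share was 7 of 10 among genes that rose, 9 of 13 among those that fell and 6 of 7 among those not called. All 3 CLK genes with a window held them, but the RefSeq starts given above for Clk3 and Clk4 lie 746 and 1384 bases inside their GENCODE genes. A match describes letters, not a bound site.

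Among the SR proteins, the falls included the most abundant transcripts of the family. Srsf3, the smallest SR protein and an adaptor of mRNA export, had the highest level in normoxia and fell most, from 195 to 80.1 FPKM (2.43-fold, chromosome 17, 29032628 to 29043373). Its close relative Srsf7, which adds a zinc knuckle to the RNA recognition motif, fell from 71.8 to 39.1 FPKM (1.84-fold, chromosome 17, 80200080 to 80207307). Srsf2, known as SC35 and a classical marker of nuclear speckles, fell from 176 to 88.6 FPKM (1.99-fold, chromosome 11, 116849901 to 116853094). All 3 had the smallest q in the authors' deposited table. The deposited locus of Srsf2 also takes in Jmjd6, a neighbour on the same strand that does not overlap it and that rose from 37.1 to 222 FPKM. Jmjd6 encodes an oxygen-dependent hydroxylase that acts on splicing factors. It thus moved against Srsf2, by 5.98-fold. The joint measurement of Mettl23 and Mfsd11 overlaps Srsf2 on the opposite strand and stood at 28.6 and 44.5 FPKM, not called.

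Srsf1 and Srsf9 form another related pair, each with a second RNA recognition motif. Srsf9 fell from 92.3 to 52.2 FPKM (1.77-fold, chromosome 5, 115327177 to 115333080). Srsf1, the founding member of the family, fell from 3.44 to 1.72 FPKM (2.00-fold, chromosome 11, 88047373 to 88053755, q = 0.000395 in the authors' deposited table). Its level in normoxia stood at percentile 21.2 of tested protein-coding measurements, while the other 9 tested SR genes ranged from 55.4 to 195 FPKM. The splicing gene Sf1, which cells need, is listed at 0 in both conditions of the same table, so low values can be failed estimates. Whether Srsf1 is one was not tested. Without it, 5 of 9 SR genes fell.

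The trio of Srsf4, Srsf5 and Srsf6, related in sequence, split. Srsf6 fell from 93.1 to 51.8 FPKM (1.80-fold, chromosome 2, 162931528 to 162937121). Srsf4, which has the longest arginine and serine tail of the trio, rose from 55.4 to 81.5 FPKM (1.47-fold, chromosome 4, 131873617 to 131901706). Srsf5 stood at 164 and 145 FPKM, without a call (q = 0.215 in the authors' deposited table). In normoxia Srsf4 was therefore the lowest of the trio and Srsf5 the highest, and in hypoxia Srsf6 was the lowest. The order of Srsf4 and Srsf6 was reversed between the conditions.

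The other risen SR gene was Srsf11, also known as p54, which went from 78.7 to 104 FPKM (1.32-fold, q = 0.000875 in the authors' deposited table). Srsf10, a splicing repressor when dephosphorylated, stood at 78.5 and 94.4 FPKM and narrowly missed the call there (q = 0.0593). Srsf12, its closest relative, was at 0.116 and 0.0630 FPKM and was not tested by the authors. Summed over the family the SR level went from 1007 to 738 FPKM, 1.37-fold lower, and the 6 genes that fell went from 631 to 313 FPKM. With the rise of the kinases, the summed SR level was 8.37 times the summed CLK level in normoxia and 2.71 times in hypoxia. The SR sums take Srsf1 at its deposited level, and whether that is a failed estimate was not tested.

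**Figure D2:**
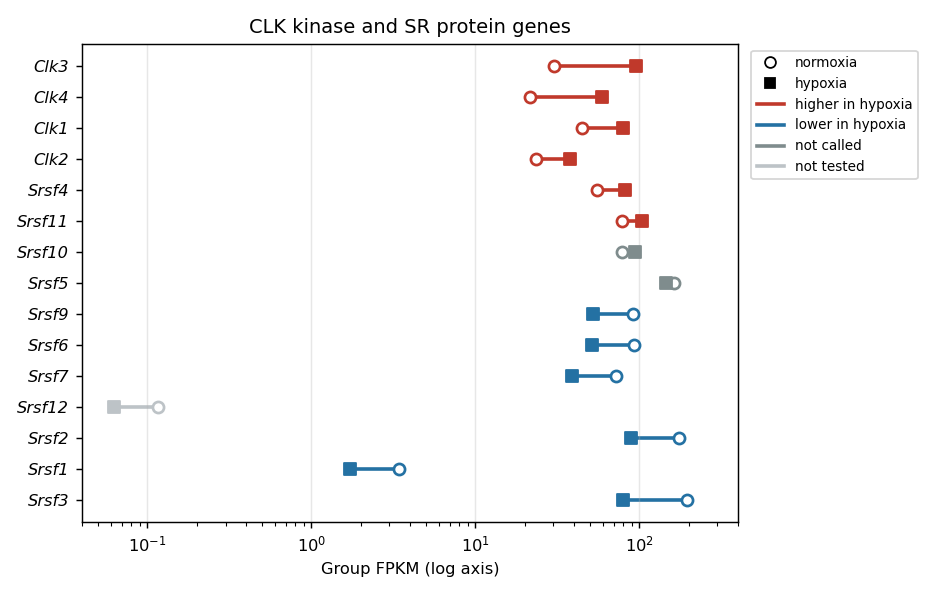
Group FPKM on a log axis in normoxia (open circles) and hypoxia (filled squares) for the 4 CLK and 11 SR genes, each family ordered by log2 fold change, with line colour giving the authors' call. All CLK genes lie further right in hypoxia, Srsf3 falls from 195 to 80.1 FPKM, and Srsf1 and Srsf12 lie far to the left of the rest.

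The hnRNPs were the most abundant of the 3 families, with a sum of 3914 FPKM in normoxia and 3716 FPKM in hypoxia. Hnrnpu enters at its low deposited level, and Hnrnpm, without a measurement of its own, is left out. The sum hid opposite movements, since the 7 genes that fell went from 1908 to 1154 FPKM and the 6 that rose from 1454 to 2007 FPKM. Their largest changes lay in the subfamily of hnRNP D and AB. Hnrnpab fell from 365 to 155 FPKM (2.35-fold, chromosome 11, 51600100 to 51606847). Hnrnpd, whose product AUF1 binds AU-rich elements and governs mRNA decay, fell from 313 to 149 FPKM (log2 fold change -1.07, chromosome 5, 99955935 to 99978938). Hnrnpdl, its paralog, rose from 87.2 to 185 FPKM (2.12-fold, chromosome 5, 100033577 to 100039664). The genes Hnrnpd and Hnrnpdl lie 54.6 kb apart on the same strand, and Hnrnpdl made up 21.8% of their joint level in normoxia and 55.4% in hypoxia. All 3 genes had the smallest q in the authors' deposited table. Hnrnpab also shares a deposited locus with Phykpl on the opposite strand (7.31 FPKM in hypoxia, not called).

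In the A/B subfamily, which forms the core of hnRNP particles, the leading pair moved apart. Hnrnpa2b1, the most abundant hnRNP transcript in normoxia, fell from 784 to 525 FPKM (1.49-fold, chromosome 6, 51460932 to 51469894). Hnrnpa1, whose product binds splicing silencers, rose from 479 to 599 FPKM (1.25-fold, chromosome 15, 103240432 to 103246692, q = 0.00296 in the authors' deposited table). Hnrnpa1 was thus below Hnrnpa2b1 in normoxia and above it in hypoxia. Hnrnpa0, an intronless relative, fell from 107 to 77.3 FPKM (1.38-fold). Hnrnpa3 stood at 31.9 and 28.2 FPKM, without a call (q = 0.386 in the authors' deposited table).

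The F/H subfamily binds runs of guanines. Its 4 genes all had lower values in hypoxia, of which 2 passed the authors' test. Hnrnph1 fell from 248 to 175 FPKM (1.41-fold). Hnrnph3 fell from 31.5 to 23.5 FPKM (1.34-fold, q = 0.0157 in the authors' deposited table). Hnrnpf, at 167 and 147 FPKM, and Hnrnph2, at 58.4 and 51.7 FPKM, were not called there (q = 0.208 and q = 0.105). Hnrnph3 shares its deposited locus with Rufy2 on the opposite strand, which rose from 9.57 to 13.3 FPKM.

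Hnrnpk, which encodes a protein that binds runs of cytosines, was the most abundant hnRNP transcript in hypoxia. It rose from 509 to 755 FPKM (1.48-fold, chromosome 13, 58391142 to 58403343). Hnrnpc, whose product binds uridine tracts, rose from 219 to 266 FPKM (1.22-fold, q = 0.00871 in the authors' deposited table). Neither of the L genes, whose products bind CA-rich RNA, passed. Hnrnpl was at 252 and 288 FPKM (q = 0.117 in the authors' deposited table) and Hnrnpll at 41.9 and 38.1 FPKM (q = 0.202 there). Hnrnpr fell from 60.1 to 49.0 FPKM (1.23-fold, q = 0.0187 in the authors' deposited table).

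In the U subfamily Hnrnpul1 rose from 90.2 to 116 FPKM (1.28-fold) and Hnrnpul2 from 69.9 to 86.7 FPKM (1.24-fold). Hnrnpu itself, which encodes the nuclear matrix protein SAF-A, was at 1.19 and 0.849 FPKM, without a call (q = 0.227 in the authors' deposited table). That level was at percentile 11.0 of tested protein-coding measurements, and the next lowest hnRNP gene in normoxia was Hnrnph3 at 31.5 FPKM. Hnrnpu shares its deposited locus with Cox20 on the opposite strand, at 11.1 and 12.1 FPKM. As for Srsf1, whether this is a failed estimate was not tested.

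**Figure D3:**
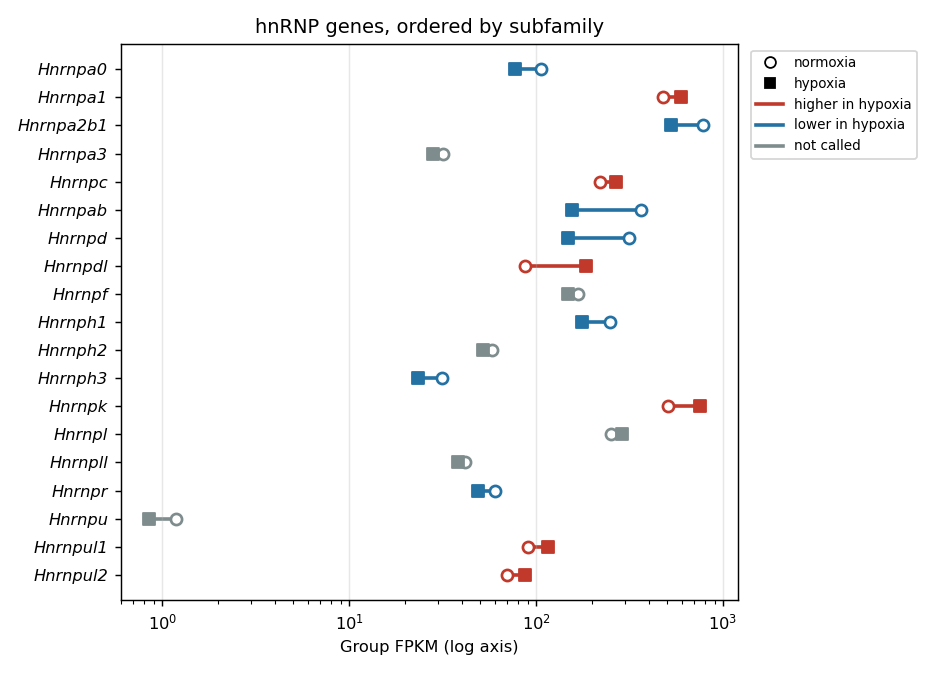
Group FPKM on a log axis in normoxia (open circles) and hypoxia (filled squares) for the 19 hnRNP genes in the order of their subfamilies, with line colour giving the authors' call. Hnrnpd and Hnrnpdl run in opposite directions, from 313 to 149 FPKM and from 87.2 to 185 FPKM, and Hnrnpu lies far to the left of the rest.

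Transcripts that end in decay or keep an intron are annotated for most of these genes. Either class is listed for 79.4% of the 34 genes, against 64.6% of tested protein-coding genes and 73.6% of those averaging at least 20 FPKM. In the GENCODE M21 annotation a transcript subject to nonsense-mediated decay is listed for 9 of 11 SR genes, 10 of 19 hnRNP genes and all 4 CLK genes. The share over the 34 genes was 67.6%, against 28.3% of 11750 tested protein-coding genes and 31.5% of those averaging at least 20 FPKM. The median number of annotated transcripts per gene was 8.5 over the 34 genes, against 5 and 6 in these backgrounds. The shares are not adjusted for it. A transcript with a retained intron is listed for 8 SR genes, 13 hnRNP genes and all 4 CLK genes, 73.5% in all, against 58.8% of tested genes and 69.0% at 20 FPKM and above. Clk1 and Clk4 have 7 such transcripts each, beside 1 and 4 protein-coding transcripts. Srsf11, with 11, and Hnrnpk, with 13, have more. One FPKM per gene sums over all of these, so whether the risen CLK level or the fallen SR level lies in coding transcripts cannot be read from the table.

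Other genes of splicing were taken from lists drawn up by function, with earlier results of these data known. Among SR-related and SR-like genes 30 were tested, of which 19 rose and 6 fell, and the median log2 fold change was 0.38, where the SR proteins proper had -0.76. The shares, 63.3% higher and 20% lower, stand beside 38% and 26.3% of all measurements averaging at least 20 FPKM, the background given for the next lists too. The lists also hold genes that average below 20 FPKM. Over all tested measurements the shares were 28.9% higher and 29% lower. Rsrp1, which encodes a small arginine- and serine-rich protein, rose from 110 to 283 FPKM (2.58-fold). Luc7l, a relative of a U1 component, rose 2.11-fold to 70.4 FPKM and Rbm39 1.97-fold to 322 FPKM. Son, which encodes an organiser of nuclear speckles, fell from 61.2 to 38.5 FPKM.

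Among 15 tested kinases, phosphatases and importers of SR proteins, calls were 7 higher and 3 lower (median 0.18). These shares, 46.7% and 20%, stand beside 38% and 26.3% of measurements averaging at least 20 FPKM. Several of the listed genes average below 20 FPKM, and over all tested measurements the shares were 28.9% higher and 29% lower. The kinase genes Dyrk1b and Dyrk3 rose 2.15-fold to 21.7 FPKM and 1.90-fold to 2.55 FPKM. Ppp1r10, which encodes a nuclear regulator of protein phosphatase 1, fell from 21.4 FPKM in normoxia, by 4.27-fold. The SRPK genes, named here after their values were seen, had calls in both directions. Srpk1 fell from 42.6 to 32.4 FPKM, Srpk2 rose from 21.1 to 33.7 FPKM, and Srpk3, at 0.121 and 0.0874 FPKM, was not tested.

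Among hnRNP proteins that carry other symbols 14 were tested, and calls were 3 higher (21.4%) and 5 lower (35.7%, median -0.065). Ptbp1, the polypyrimidine tract binding protein, rose from 212 to 359 FPKM (1.70-fold). Rbmx, an X-linked hnRNP G gene, fell from 20.5 to 11.1 FPKM (1.85-fold). Among 27 other splicing regulators, calls were 6 higher (22.2%) and 12 lower (44.4%, median -0.077). The paraspeckle gene Pspc1 fell 2.27-fold to 12.2 FPKM and Khdrbs1, the gene of SAM68, 2.15-fold to 41.0 FPKM, while Rbm38 rose from 16.7 to 35.1 FPKM and Celf5 fell from 1.71 to 0.773 FPKM.

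In the core of the spliceosome 64 genes were tested, and calls were 12 higher and 27 lower (median -0.16). The falls, at 42.2% of those tested, stand beside 29% of all measurements and 26.3% of the abundant ones. Sf3b1, the gene of the U2 subunit that contacts the branch point, rose from 70.6 to 198 FPKM (2.81-fold). Prpf31, of the tri-snRNP, fell 2.44-fold to 16.2 FPKM, and Snrnp40, of the U5 particle, went from 3.11 to 0.240 FPKM. The level of Snrnp40 is low for this list, and as for Srsf1, whether it is a failed estimate was not tested. In the minor spliceosome, which removes the rare U12-type introns, calls among 8 tested genes were 4 higher (50%, against 38%) and 2 lower (25.0%, against 26.3%), with a median of 0.36. Snrnp48 and Snrnp25 rose 3.10-fold and 2.71-fold, Pdcd7 rose 1.61-fold and Zmat5 fell 1.44-fold. For nonsense-mediated decay and the exon junction complex, 14 genes gave 3 higher (21.4%) and 5 lower (35.7%) calls (median 0.038). The decay factors Smg6 and Upf2 rose from 11.0 to 24.1 FPKM and from 16.3 to 34.4 FPKM, and the exon junction gene Magohb fell 2.15-fold.

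**Figure D4:**
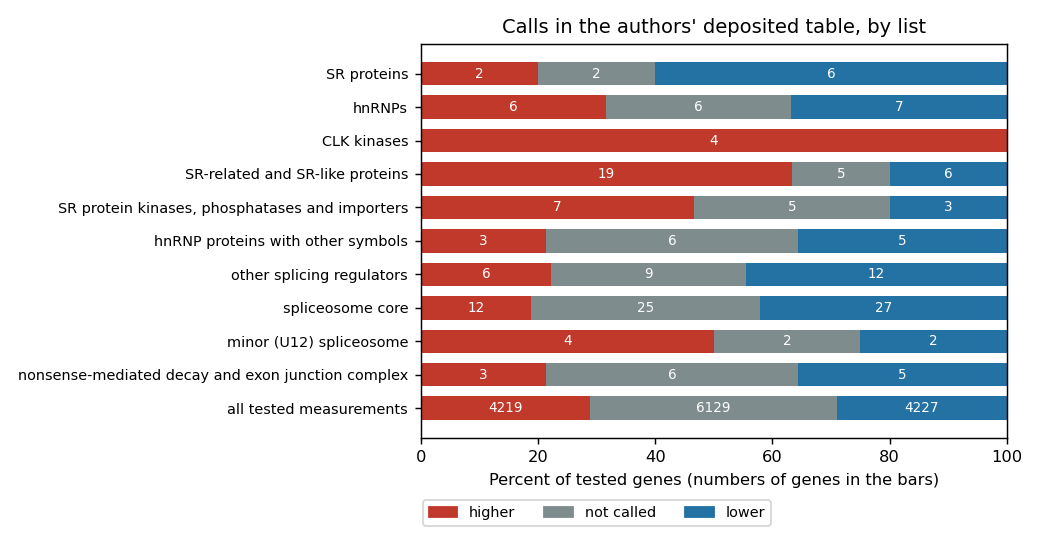
Share of tested genes that the authors called higher (red), lower (blue) or neither (grey) in hypoxia, for the 3 families, the lists of other splicing genes and all tested measurements, with numbers of genes in the bars. The CLK bar is red throughout, the SR bar is blue for 6 of 10 genes, and the SR-related bar is red for 19 of 30.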

How the data were processed

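RNA was measured in 6 samples, 3 per condition. Poly-A RNA was selected for stranded libraries, per the labels' protocols. The tools were Cuffdiff 2.2.1, Cufflinks, HISAT2 2.1.0 and StringTie 1.3.4d on build GRCm38, per the submitters' processing notes. Not given in the sources used here are the scaling between libraries and the treatment of reads from near-identical copies. The authors deposited 1 table with 1 FPKM per gene and condition, their log2 fold change, their q-value and their p-value, per the file headers. It holds no values of single samples, so no test between replicates was run here, and the calls are those of the deposited q below 0.05. The labels describe the replicates as biological.

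Rows listing the same measurement under more than 1 identifier were merged, which left 51482 of 53207 rows, 14575 of them tested. Folds of named genes are ratios of the deposited FPKM. List medians used a pseudocount of 1, which understates changes of low genes, and a mean of at least 1 FPKM. Coordinates are 1-based, from GENCODE M21 on GRCm38. The deposited locus held the annotated gene, within 50 bp, for 33 of 34 genes, and ended earlier for Hnrnpa1. Python 3.11.15 with pandas 2.3.3 was used, and the counting was tested on simulated data. Every gene of the 3 families was named, and from each list up to 3 called genes with the largest change and 1 against the majority, with at least 1 FPKM in the higher condition; marker lists are given as sums. A gene selected this way is not reported here. The genes and lists were chosen with earlier results of these data known. Protein sequences were not analysed here. Alternatives were a q of 0.01, a 2-fold threshold, filters, a pseudocount of 0.1, rescaled values and measurements with several gene names.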

Additional observations from a re-analysis of the deposited data

How the results depend on the processing

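No paired analysis was possible because the table holds 1 value per condition, and for the same reason no sample could be left out. With a change of at least 2-fold required beside q below 0.05, 2 CLK genes rose, no SR gene rose (0) and 2 fell, and 1 hnRNP gene rose and 2 fell, since fewer genes pass such a threshold. At q below 0.01 the hnRNP falls went from 7 to 5, without Hnrnph3 and Hnrnpr, and the other counts did not change. With a pseudocount of 0.1 the median log2 fold change was -0.83 for the SR proteins and 1.13 for the CLKs. The SR median was -0.71 without a filter, which adds Srsf12, and -0.81 with a mean of at least 5 FPKM, which leaves out Srsf1; the hnRNP median with that filter was -0.17. Scaling both conditions to the same summed FPKM, chosen after seeing the data, lowers log2 fold changes by about 0.22 and gave medians of -0.94 for the SR proteins, -0.39 for the hnRNPs and 0.89 for the CLKs. The smallest change among the 25 called genes was 0.29, larger than this shift, so no direction could turn, and the q could not be recomputed. The depth is unknown, so what it limits cannot be given.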

Other observations

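Hnrnpm, which encodes a further abundant hnRNP, shares 1 measurement with the ubiquitin ligase gene March2 and is not among the 34 genes. The joint measurement fell from 172 to 90.4 FPKM (1.90-fold), with the smallest q in the authors' deposited table, and which of the genes accounts for it cannot be told apart. The processed pseudogenes Hnrnpa1l2-ps and Hnrnpa1l2-ps2 reached at most 0.241 FPKM and were not tested by the authors.

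Clk4 and Hnrnpab lie 318 kb apart on chromosome 11 and moved in opposite directions, 2.73-fold higher and 2.35-fold lower. Of the 34 genes, 19 have a deposited locus of their own and 15 share it with another measurement, which was tested for 9 of them.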
